A study of Mus musculus with 44 samples.

Results

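MicroRNA-150 (miR-150) is a short regulatory RNA of lymphocytes, and Zeb1, Elk1, Foxp1, Notch3, Cbl and Arrb2 are 6 genes that have been reported as its targets besides the better known Myb. They were taken by symbol from the count table, in which each symbol has 1 row, so that 6 of 55416 genes are described. All 6 passed the filter on low counts that left 21873 genes for testing. The rule that names them uses no measured value, but the 6 genes were chosen with earlier results of these data known.

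Naive CD4 T cells, sorted out of spleen from C57BL/6NTac mice, were kept for 3 days at 150000 cells per well on plate-bound antibody to CD3 with soluble antibody to CD28. Cells that received nothing else are called Th0, those with added IL-12 and anti-IL-4 are called Th1, and those given TGF-b1 plus anti-IFN-g instead are called Treg. Each culture was made from mice that were wild type (WT), knockout (KO) or knock-in (KI) at miR-150. The 9 groups held 5 libraries each, apart from Th0 KI with 4, and libraries are named by culture, genotype and the number in their label (Treg WT 4). The labels do not describe the knockout or knock-in alleles, nor whether libraries of a group came from separate mice, so p-values measure the spread between these libraries.

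A microRNA guides an Argonaute protein to messenger RNAs, mostly by pairing of its seed, the bases near its 5′ end, with the 3′ untranslated region (3′ UTR), which lowers translation or RNA level. miR-150 is abundant in resting mature lymphocytes and falls when T cells are activated. Of the 6 targets, Zeb1, Elk1 and Foxp1 are transcription factors, Notch3 is a receptor, and Cbl and Arrb2 limit signalling from receptors.

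The deposited libraries held 60815821 to 137415965 counts. The hairpin gene Mir150 gave 6 counts over 15 WT libraries, 0 over 15 KO libraries and 7 over 14 KI libraries, and these libraries of polyadenylated RNA did not measure the mature microRNA. The T cell markers Cd3e, Cd3d, Cd4, Trac and Cd5 had summed levels of 958 to 1988 CPM (counts scaled to a common library size) in every library. Some libraries stood apart: Cd8a, which marks CD8 T cells, reached 112.7 CPM in Th0 WT 4, 107.5 in Th0 KI 3, 131.5 in Th1 WT 4, 107.4 in Th1 KI 3, 443 in Treg WT 4, 318 in Treg KI 3 and 73.1 in Treg KO 2. Foxp3, the defining factor of regulatory T cells, lay between 376 and 596 CPM in 11 Treg libraries but was 159 in Treg WT 3, 47.7 in Treg WT 4, 77.4 in Treg KO 2 and 61.97 in Treg KI 3. RNA from a mixed culture cannot tell fewer cells of a type from less RNA per cell.

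All 6 targets hold a match to the seed of miR-150-5p in a 3′ UTR annotated by GENCODE M21 on GRCm38, and the matches are shown because their kind and place differ between the genes. The search used TTGGGAG, which pairs with bases 2 to 8 of the microRNA (7mer-m8), TTGGGAGA (8mer), TGGGAGA (7mer-A1) and TGGGAG (6mer) on the strand of the transcript. An 8mer contains a 7mer-m8 and a 7mer-A1, and was counted once. Each line below is a stretch of 30 bases, written 5′ to 3′ with the match in capitals.

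Elk1, upper site: gagcccttgtacgatttaatggtTTGGGAG
Elk1, lower site: gacccttttaagtgtccctggagTTGGGAG
Foxp1: cttagtgccatcaagaatcccatTTGGGAG
Notch3: cctcccctggggtcaggggacatTTGGGAG
Cbl: cttcctgtggctttgataatatTTGGGAGA
Arrb2: gacgaggggcTGGGAGAggtaggggcgggc

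Elk1 alone has 2 matches of the 7mer-m8 kind, at chrX:20934923-20934929 and chrX:20934412-20934418 on the minus strand, 25.4% and 50.2% of the way into its 3′ UTR of 2055 bases. Foxp1 has a 7mer-m8 at chr6:98929865-98929871 (minus strand), 4.6% into the 3′ UTR and present in 4 of 4 of its transcripts with an annotated one. In Notch3 the 7mer-m8 lies at chr17:32121222-32121228 (minus strand), 59.2% into the 3′ UTR. Cbl has the only 8mer, at chr9:44147298-44147305 (minus strand), within the longest form of its 3′ UTR, which 1 of 6 transcripts has. Arrb2 has a 7mer-A1 at chr11:70440268-70440274 (plus strand), 11 bases after the stop codon in 5 of 5 transcripts. Zeb1 has a 7mer-A1, 14.4% into its 3′ UTR of 2401 bases.

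Long 3′ UTRs hold such matches more often, so each gene was set beside tested genes with 3′ UTRs of like length (the shorter at least 0.8 times the longer). A 7mer-m8 or 8mer was present in 22.2% of 2346 genes of like length for Elk1, in 42.7% of 1081 for Foxp1, in 13.1% of 2106 for Notch3 and in 56.7% of 240 for Cbl. Any 7mer or 8mer was present in 38.5% of 2217 genes of like length for Zeb1 and in 11.1% of 1591 for Arrb2. For Zeb1 and Arrb2, which lack a 7mer-m8 or 8mer, 25.6% and 6.16% of genes of like length held one. Any 7mer or 8mer was present in 34.1%, 60.8%, 22.5% and 75.8% of genes of like length for Elk1, Foxp1, Notch3 and Cbl. Over all 14528 tested genes with a 3′ UTR, not matched for length (median 1173 bases), 17% held a 7mer-m8 or 8mer and 26.4% any 7mer or 8mer. Of the 6 targets, 4 held a 7mer-m8 or 8mer. A match is a description of the letters and does not show binding.

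**Figure D1:**
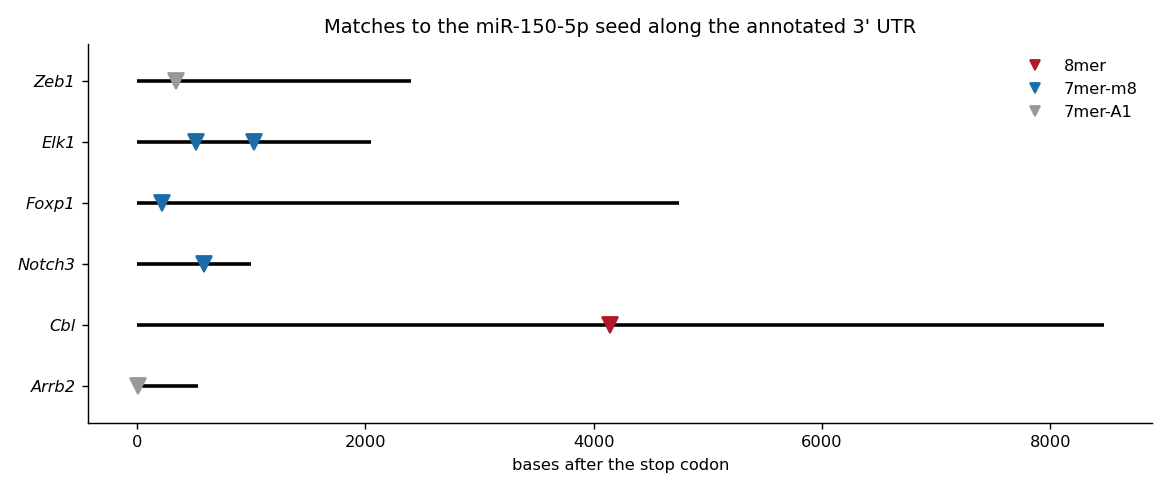
Position of each seed match (triangles, coloured by kind) along the 3′ UTR of the 6 genes, in bases after the stop codon; the line is the length of the 3′ UTR. Elk1 has 2 matches, Cbl has the only 8mer, in the longest 3′ UTR, and the match of Arrb2 starts 11 bases after the stop codon.

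Per length of RNA, the targets differed widely in level. Over the union of exons, Th0 WT cells held 25.5 ± 2.03 RPKM (CPM divided by the length in kilobases; SD, n = 5) of Cbl, 20.3 ± 4.33 of Arrb2, 17.01 ± 2.25 of Foxp1, 5.75 ± 0.557 of Zeb1, 2.66 ± 0.249 of Elk1 and 0.0639 ± 0.0231 of Notch3. Neighbours among Cbl, Arrb2 and Foxp1 differed by less than the sum of their SDs, and their order changed when the longest coding transcript was used as the length (27.7, 31.3 and 32.6 RPKM). Zeb1, Elk1 and Notch3 stood below them in that order under both lengths.

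Each of the 6 genes was called in at least 1 comparison of cultures. The share of all genes called at least once was not determined, so this count has no background beside it. Between cultures of a genotype, 27 of 54 results passed an adjusted p of 0.05 (edgeR's quasi-likelihood test, Benjamini-Hochberg adjustment over all genes), 23 higher and 4 lower. In Th1 against Th0, 2 of 6 targets were higher in WT, where 2.22% of all genes tested were called higher, 3 in KO (5.33%) and 2 in KI (2.98%), and none was lower (0.818%, 4.18% and 2.94%). In Treg against Th0, 3 were higher in WT (17.4%), KO (17.1%) and KI (16.7%), and none was lower (15.7%, 15.9% and 16.9%). In Treg against Th1, 3 were higher and 1 lower in WT (15.6% and 15.2% of all genes), 2 and 2 in KO (15% each) and 2 and 1 in KI (17% and 15.8%). The median log2 fold change of the 6 genes was 0.19, 0.51 and 0.44 in Th1 against Th0 for WT, KO and KI, where that of all genes was -0.01, 0.01 and -0.02, and 0.47, 0.40 and 0.50 in Treg against Th0, where that of all genes was 0.02, 0.04 and -0.01. In Treg against Th1 the medians were 0.24, -0.08 and -0.02, beside 0.00, 0.00 and 0.01 for all genes. The comparisons share libraries and are not independent of each other.

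**Figure D2:**
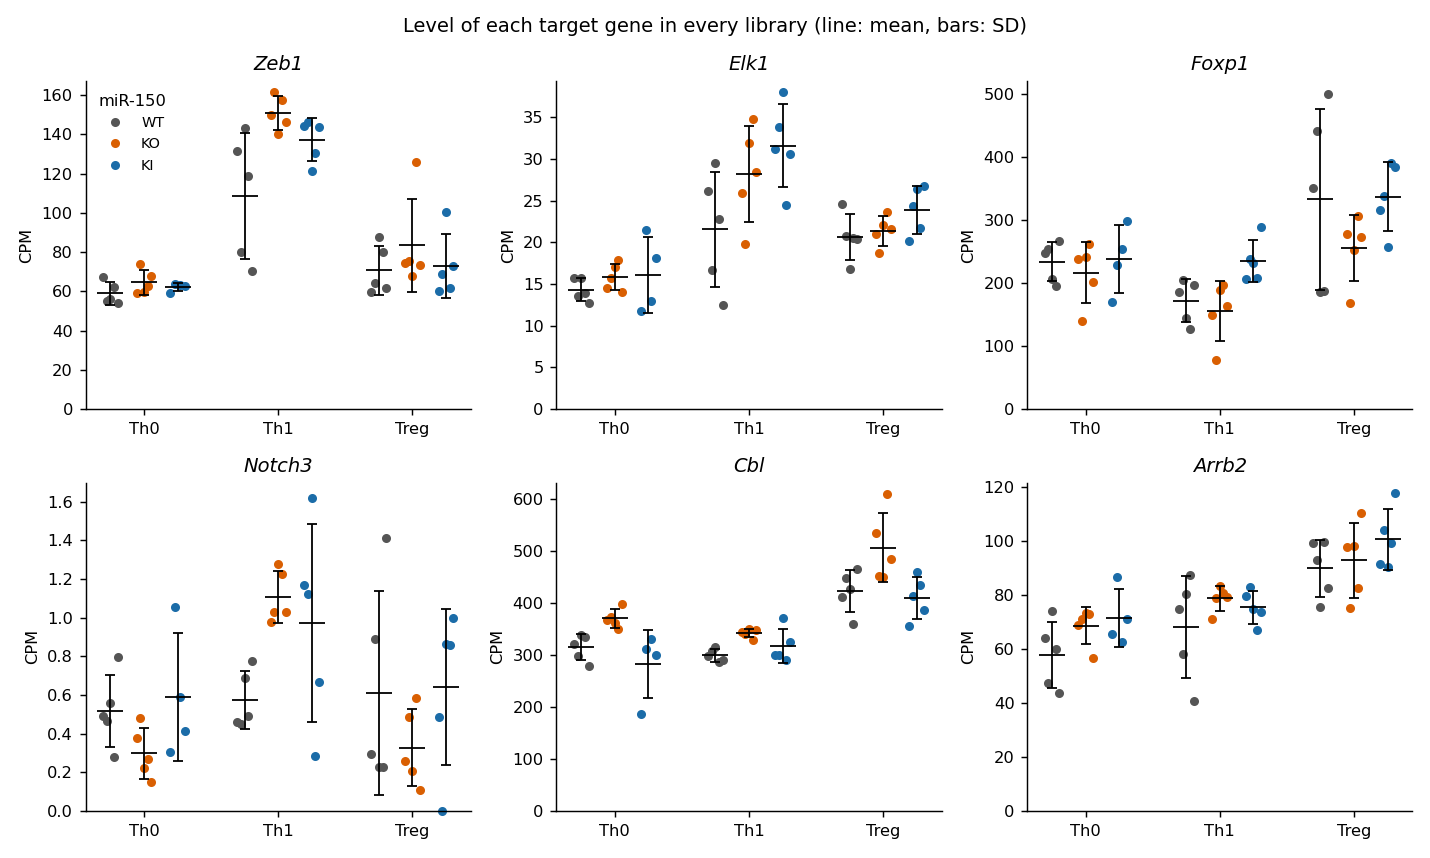
Level of each target in every library (CPM; points, coloured by miR-150 genotype), with the mean (line) and SD (bars) of each group of 5 libraries, 4 in Th0 KI. Zeb1 and Elk1 had their highest group means in Th1, and Cbl and Arrb2 in Treg; Notch3 stayed below 1.7 CPM.

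Zeb1 encodes a zinc-finger repressor that binds E-box sequences and is known in T cells for restraining interleukin-2. In Th0, Zeb1 stood at 67.4, 55, 55.9, 62.4 and 54.3 CPM in WT, at 59.3, 73.8, 59.4, 62.5 and 67.7 in KO and at 59.3, 63.6, 63.3 and 62.9 in KI. In Th1 it stood at 131.3, 80.1, 143.1, 118.8 and 70.2 CPM in WT, at 150, 162, 140, 157 and 146 in KO and at 144.2, 146, 121.5, 130.6 and 143.9 in KI. In Treg it stood at 59.8, 64.1, 87.9, 80.2 and 61.95 CPM in WT, at 74.5, 75.4, 67.7, 125.8 and 73.5 in KO and at 60.4, 69.03, 100.5, 61.8 and 72.7 in KI. Every Th1 library lay above every Th0 library of its genotype, and Th1 WT 2 and Th1 WT 5 were the lowest of the Th1 libraries. Of all genes, 3.16%, 12.7% and 10.1% had no overlap between Th1 and Th0 in WT, KO and KI, 15.6%, 22.8% and 25.3% between Treg and Th0, and 11.3%, 22.2% and 23.9% between Treg and Th1, in either direction. Zeb1 rose in Th1 by 0.88 ± 0.16 (log2 fold change ± SE, adjusted p = 0.000483 by edgeR) in WT, by 1.23 ± 0.16 (2.32e-06) in KO and by 1.14 ± 0.17 (6.1e-05) in KI. In Treg against Th1 it was lower by log2 fold changes of -0.62 (0.00251), -0.86 (6.6e-05) and -0.91 (2.41e-05). Between Treg and Th0 no call was made, with log2 fold changes of 0.26, 0.37 and 0.23 and adjusted p of 0.201, 0.066 and 0.311. When the WT libraries of these cultures were fitted alone, the adjusted p of Zeb1 was 0.0557 for Th1 against Th0 and 0.0661 for Treg against Th1. Each of the 6 calls was also made with WT 4, KO 2 and KI 3 of every culture left out.

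Elk1 encodes an ETS factor that ERK kinases activate and that drives immediate early genes together with serum response factor. In Th0, Elk1 stood at 15.7, 13.6, 15.7, 13.9 and 12.7 CPM in WT, at 14.6, 15.7, 17.1, 17.8 and 14.04 in KO and at 11.8, 21.5, 12.95 and 18.2 in KI. In Th1 it stood at 26.2, 16.7, 29.5, 22.8 and 12.5 CPM in WT, at 25.97, 19.8, 31.8, 34.8 and 28.4 in KO and at 31.2, 33.8, 38, 24.5 and 30.5 in KI. In Treg it stood at 24.6, 20.7, 16.8, 20.5 and 20.4 CPM in WT, at 21.04, 18.7, 22.02, 23.6 and 21.6 in KO and at 20.2, 24.3, 26.4, 21.7 and 26.8 in KI. Th1 WT 5 lay below all Th0 WT libraries, while the other Th1 WT libraries lay above them and the Th1 libraries of KO and KI were all above Th0. In Treg, the WT and KO libraries were all above Th0, and those of KI overlapped with Th0 KI 3. Elk1 rose in Th1 by 0.59 ± 0.17 on the log2 scale in WT (adjusted p = 0.0458), by 0.83 ± 0.17 in KO (0.00135) and by 0.97 ± 0.18 in KI (0.00101). In Treg it rose over Th0 by 0.52 ± 0.17 in WT (0.0157), by 0.43 ± 0.17 in KO (0.0457) and by 0.57 ± 0.18 in KI (0.0135). The WT call in Th1 and the KO call in Treg were close to the threshold. When 1 library was left out, the first was lost in 11 of 44 fits (adjusted p up to 0.219, without Th1 WT 3) and the second in 26 (adjusted p up to 0.106). Their log2 fold changes stayed between 0.46 and 0.71 and between 0.38 and 0.46. With WT 4, KO 2 and KI 3 of every culture left out, the adjusted p of the WT value was 0.0919. The other Treg calls were lost without Treg WT 1 (0.45, 0.0532) in WT and without Th0 KI 1 or Th0 KI 4 (0.45 and 0.47, 0.0734 and 0.0547) in KI.

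Exons of Elk1 overlap on the same strand with Uxt, which encodes a prefoldin-like protein, and how shared reads were assigned is not stated in the labels or files. Uxt had 17.1 ± 1.01 CPM in Th0 WT (SD, n = 5). It had 18.7 ± 2.43 in Th1 WT and 13.8 ± 2.40 in Treg WT. In KO its means were 16.6, 20.1 and 13.8 CPM in Th0, Th1 and Treg, and in KI 20.2, 19.4 and 12.1. The mean of Uxt was lowest in Treg in each genotype, where Elk1 was above Th0. From Th0 to Th1 it was higher in WT and KO but not in KI, while Elk1 rose in each genotype. In Th0 KI, Uxt spanned 13.7 to 28.2 CPM and Elk1 11.8 to 21.5 (n = 4). The part of shared reads in the level of Elk1 was not tested. The genes that overlap exons of Zeb1, Notch3, Foxp1 and Arrb2 were at most 1.44 CPM in any library. Gm17276, on the strand opposite to Notch3, reached 0.176 CPM.

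Foxp1 encodes a forkhead factor known for holding naive T cells quiescent. In Th0, Foxp1 stood at 247, 254, 207, 196 and 266 CPM in WT, at 237, 139.1, 241, 262 and 201 in KO and at 170, 229, 255 and 298 in KI. In Th1 it stood at 186, 205, 143.9, 127.6 and 197 CPM in WT, at 149, 77.2, 188, 197 and 164 in KO and at 207, 238, 231, 208 and 288 in KI. In Treg it stood at 350, 441, 186, 187 and 499 CPM in WT, at 278, 168, 253, 306 and 273 in KO and at 316, 337, 257, 390 and 384 in KI. Its groups overlapped in every comparison of cultures, and libraries numbered KO 2 were the lowest of KO in each culture. Foxp1 was higher in Treg than in Th1 by 0.95 ± 0.23 on the log2 scale in WT (adjusted p = 0.00168) and by 0.72 ± 0.23 in KO (0.0152), and in KI the log2 fold change was 0.52 ± 0.23 (0.0771). Without Th1 KO 2 the KO value was 0.53 (adjusted p = 0.0732).

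Libraries of a genotype that carry the same number deviated together across cultures, so these comparisons were also fitted with the number as a block, which added 7 calls to the 27 and lost none. For Foxp1, Th1 was lower than Th0 in 5 of 5 same-numbered pairs in WT, at 0.652 to 0.810 times the Th0 level, and in 5 of 5 in KO, at 0.556 to 0.813 times. With the block the log2 fold changes were -0.47 (adjusted p = 0.0232, 7.15% of all genes called) and -0.51 (0.00577, 18.2%), where the fit without it gave -0.44 (0.373) and -0.48 (0.182). In KI, Foxp1 was higher in 2 and lower in 2 of 4 pairs, and the log2 fold change was -0.01 with the block (0.988). That the KI change differs from that of WT was not shown. The difference was 0.42 ± 0.33 without the block, and 0.46 with it, at adjusted p of 1 in both fits. With the block its unadjusted p was under 0.05, but the share of all genes that reached this was not determined. With the block Foxp1 was also higher in Treg than in Th0 in WT (0.41, 0.0116, 40.4% of genes called) and KI (0.51, 0.00437, 39.3%), and higher in Treg than in Th1 in KI (0.52, 0.00174, 39.9%). The remaining calls were Elk1, lower in Treg than in Th1 in KO (-0.38, 0.0277, 36.7%) and KI (-0.40, 0.0187).

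**Figure D3:**
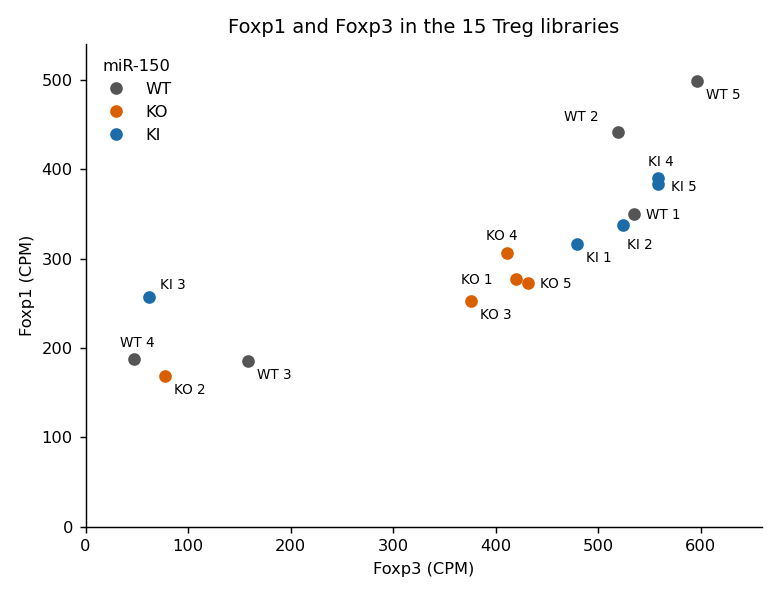
Foxp1 against Foxp3 (both in CPM) in the 15 Treg libraries, coloured by miR-150 genotype and named by genotype and number. The 4 libraries with Foxp3 below 160 CPM have Foxp1 between 168 and 257 CPM.

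In Treg WT the SD of Foxp1 was 43.2% of its mean, above that of every other target apart from Notch3 (86.7%). Treg WT 3, Treg WT 4, Treg KO 2 and Treg KI 3, the libraries with the lowest Foxp3, had the lowest Foxp1 of their groups, at 186, 187, 168 and 257 CPM. These libraries were singled out after their values were seen. With all libraries the log2 fold change of Foxp1 in Treg against Th0 in WT was 0.51 (adjusted p = 0.0852 by edgeR). Without Treg WT 3 it was 0.65 (0.0235), and without Treg WT 4 it was 0.67 (0.0189). Leaving out a library with low Foxp1 raises the mean of Treg WT by construction, so these values are no separate evidence of a change. The share of all genes called in these fits was not recorded. Markers of CD8 T and NK cells summed to 707 CPM in Treg WT 4, where the median of the group was 45.9, and to 476 CPM in Treg KI 3, where it was 45. In Treg KO 2 they summed to 165 CPM, where it was 52.6. Treg WT 3, the lowest in Foxp1 of WT, had Cd8a at 23.9 CPM, beside 17.5, 4.16 and 4.90 in Treg WT 1, 2 and 5. The part of CD8 T and NK cells in the Foxp1 level was not tested.

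Notch3 encodes a receptor that is cleaved on contact with a ligand and then acts in the nucleus. In Th0, Notch3 stood at 0.493, 0.464, 0.557, 0.277 and 0.795 CPM in WT, at 0.378, 0.482, 0.220, 0.268 and 0.147 in KO and at 0.303, 1.05, 0.588 and 0.414 in KI. In Th1 it stood at 0.458, 0.449, 0.690, 0.493 and 0.774 CPM in WT, at 0.978, 1.03, 1.28, 1.23 and 1.03 in KO and at 1.17, 1.12, 1.62, 0.287 and 0.665 in KI. In Treg it stood at 0.292, 0.892, 0.229, 0.225 and 1.41 CPM in WT, at 0.260, 0.486, 0.205, 0.582 and 0.107 in KO and at 0.487, 0, 0.862, 0.857 and 0.997 in KI. The 5 Th1 KO libraries were close together and above all Th0 KO, Treg KO and Th1 WT libraries. Treg KI 2 had 0 counts, which allows a level of up to 0.0350 CPM (3 counts, counting error only). Notch3 rose in Th1 KO over Th0 KO by 1.89 ± 0.60 on the log2 scale (adjusted p = 0.0405) and fell from Th1 KO to Treg KO by 1.76 ± 0.60 (0.024). Groups rested on 153 to 596 counts in all, and the Th1 call was lost without any 1 of Th0 KO 1, 3, 4 and 5 and Th1 KO 2, 3, 4 and 5, at log2 fold changes of 1.70 to 1.99 and adjusted p up to 0.107. Without Treg KO 1, 3 or 5 the Treg call was lost, at -1.72 to -1.56. In WT and KI the same changes were 0.15 and 0.72 in Th1 against Th0 and 0.09 and -0.60 in Treg against Th1, with no call. The KO and WT effects differed by 1.74 ± 0.83 between Th1 and Th0 and by -1.84 ± 0.84 between Treg and Th1, with adjusted p of 1 and 0.744. Both reached an unadjusted p under 0.05, as did 1.76% and 6.41% of all genes.

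Cbl encodes a ubiquitin ligase that marks activated receptors and their kinases for removal. In Th0, Cbl stood at 322, 299, 338, 335 and 279 CPM in WT, at 368, 373, 362, 351 and 398 in KO and at 186, 312, 330 and 300 in KI. In Th1 it stood at 297, 308, 316, 287 and 290 CPM in WT, at 344, 340, 350, 329 and 349 in KO and at 300, 300, 371, 290 and 324 in KI. In Treg it stood at 412, 449, 427, 360 and 465.6 CPM in WT, at 536, 452, 451, 610 and 486 in KO and at 356, 413, 460, 435 and 386 in KI. Treg libraries lay above all Th0 libraries of their genotype, and above all Th1 libraries in WT and KO. Th0 KI 1 was the lowest of all 44. Cbl rose in Treg over Th0 by 0.43 ± 0.10 on the log2 scale in WT (adjusted p = 0.00139), by 0.45 ± 0.10 in KO (0.000706) and by 0.54 ± 0.11 in KI (0.000207). Over Th1 it rose by 0.50 (0.000321), 0.57 (5.9e-05) and 0.37 (0.00475). Each of these 6 calls was also made in every fit that left out 1 library. Th1 and Th0 differed by log2 fold changes of -0.07, -0.11 and 0.17, with 95% intervals from -0.28 to 0.14, from -0.32 to 0.10 and from -0.05 to 0.39. In KO all Th1 libraries lay below all Th0 libraries, at 0.876 to 0.966 times the Th0 level in 5 of 5 same-numbered pairs, without a call (adjusted p = 0.545).

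Arrb2 encodes beta-arrestin 2, which desensitises G protein-coupled receptors, chemokine receptors among them. In Th0, Arrb2 stood at 63.9, 47.4, 73.9, 60.2 and 43.8 CPM in WT, at 68.9, 71.1, 73.3, 73.1 and 56.6 in KO and at 65.6, 86.8, 62.5 and 71.1 in KI. In Th1 it stood at 74.8, 58.1, 80.4, 87.4 and 40.6 CPM in WT, at 71.2, 79.01, 83.2, 80.9 and 79.4 in KO and at 79.5, 82.8, 74.7, 66.97 and 73.6 in KI. In Treg it stood at 99.1, 92.8, 75.7, 99.7 and 82.5 CPM in WT, at 97.7, 75.3, 98.1, 82.8 and 110.5 in KO and at 91.6, 104.045, 90.2, 99.3 and 117.7 in KI. Treg libraries lay above all Th0 libraries of their genotype, and above all Th1 libraries only in KI. Arrb2 rose in Treg over Th0 by 0.64 ± 0.14 on the log2 scale in WT (adjusted p = 0.000709), by 0.44 ± 0.14 in KO (0.0172) and by 0.49 ± 0.15 in KI (0.0116). Without Th0 KO 5 or Treg KO 5 the KO value was 0.36 (0.0595) or 0.35 (0.0767). Over Th1 it rose by 0.40 (0.032) in WT and 0.41 (0.0241) in KI, and the KO value was 0.24 (0.226). The WT call over Th1 was lost without Th1 WT 2 or 5 or Treg WT 1, 2 or 4 (0.27 to 0.39, adjusted p 0.06 to 0.104), and the KI call without Th1 KI 4 or Treg KI 2, 4 or 5 (0.33 to 0.39, 0.0531 to 0.092).

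Beside the changes in Treg, the myeloid markers Lyz2, Itgam, Csf1r, Adgre1, S100a8 and Cd68 summed to 8.60 to 52 CPM in Treg libraries and to 3.25 to 14.1 CPM in Th0 libraries. Lyz2 and S100a8 were called higher than in Th0 in all 3 genotypes. The T cell genes Cd3e, Cd3d and Trac were called higher as well. The part of these shifts in the levels of Cbl, Arrb2, Elk1 and Foxp1 was not tested.

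**Figure D4:**
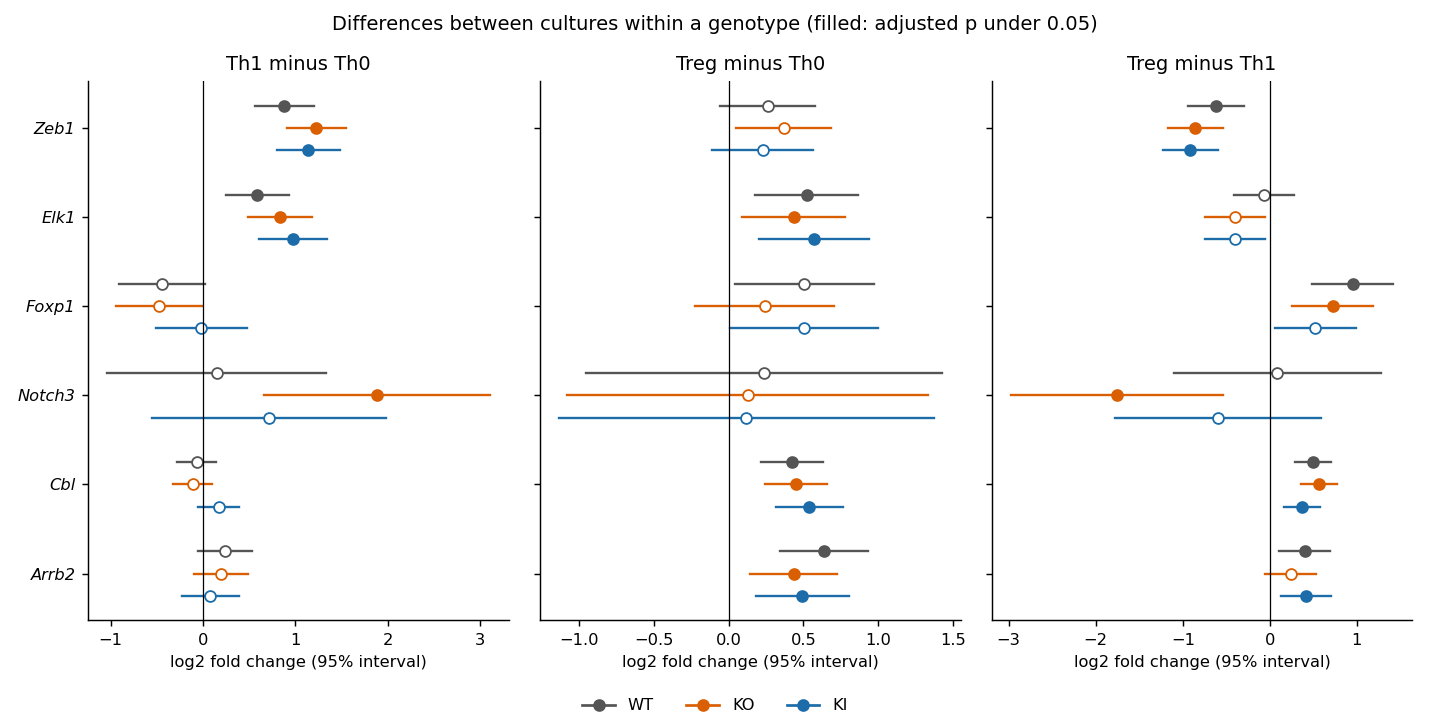
Log2 fold change of each target between cultures with its 95% interval, for Th1 minus Th0, Treg minus Th0 and Treg minus Th1, coloured by miR-150 genotype; filled points passed an adjusted p of 0.05. In all 3 genotypes Zeb1 and Elk1 rose in Th1 over Th0, and Elk1, Cbl and Arrb2 in Treg over Th0. In Treg minus Th1, Cbl passed in all 3 genotypes and Arrb2 in WT and KI. The intervals of Notch3 are the widest.

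The comparison of genotypes asks whether the reported targets differ with the miR-150 allele. None of 54 results, 6 genes in 9 comparisons, passed an adjusted p of 0.05 by edgeR, and the lowest was 0.126. The share of all genes called was 0.0% in KO against WT in Th0 and in Th1, in KI against KO in Th0 and Th1 and in KI against WT in Treg. It was 0.512% and 0.0274% in KI against WT in Th0 and Th1, 0.169% in KO against WT in Treg and 0.0229% in KI against KO in Treg. At an unadjusted p under 0.05 there were 9 of 54 results, 7 of them higher in the first-named genotype. Of all genes, 4.79%, 9.14% and 10.1% did so in KO against WT in Th0, Th1 and Treg, 16.3%, 15.1% and 8.04% in KI against WT, and 12.3%, 5.93% and 7.78% in KI against KO. DESeq2 made 1 call, Elk1 in KI against WT in Th1 (log2 fold change 0.55, adjusted p = 0.0434), where it called 3.04% of the genes it tested. In KO against WT the median log2 fold change of the 6 targets was 0.14 in Th0, 0.30 in Th1 and 0.05 in Treg, beside 0.00, 0.02 and -0.01 over all genes. In KI against WT it was 0.12, 0.39 and 0.06, beside 0.02, 0.01 and 0.00, and in KI against KO 0.04, -0.09 and 0.14, beside 0.02, -0.01 and 0.01.

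Cbl was the target with the most unadjusted results, 4 of 9. It was higher in KO than in WT by log2 fold changes of 0.24 ± 0.10 in Th0, 0.19 ± 0.10 in Th1 and 0.26 ± 0.10 in Treg, at adjusted p of 1, 0.572 and 0.346, with an unadjusted p under 0.05 in Th0 and Treg. KO libraries lay above all WT libraries in Th0, as in 0.64% of all genes in either direction, and in Th1 (1.58%), while in Treg they overlapped. KI libraries lay below KO by -0.39 ± 0.11 in Th0 (adjusted p = 0.173), where the groups did not overlap (3.55% of genes), by -0.11 ± 0.10 in Th1 and by -0.31 ± 0.10 in Treg (0.404). The Th0 value was smaller in size without Th0 KI 1, the library with the lowest Cbl, and larger without Th0 KI 4. Without the first it was -0.26 (adjusted p = 0.558 by edgeR) and without the second -0.49 (0.0334). The share of all genes called in these 2 fits was not recorded, so the second value has no background beside it. With all libraries the share was 0.0%. KI and WT differed by -0.16, 0.08 and -0.04, with 95% intervals from -0.38 to 0.06, from -0.13 to 0.29 and from -0.25 to 0.17.

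To use each number once, the log2 levels of same-numbered libraries were averaged over the 3 cultures and compared with limma. This alternative was added after seeing the data. KI 2 has no Th0 library and was left out, so 5 numbers of WT, 5 of KO and 4 of KI were compared. Cbl was higher in KO than in WT by 0.23 ± 0.08 (adjusted p = 0.643) and lower in KI than in KO by -0.28 ± 0.08 (0.568). Neither pair of groups overlapped, as in 1.24% and 3.65% of all genes. With WT 4, KO 2 and KI 3 of every culture left out, the values of Cbl were 0.23 and -0.35. None of the 18 results was called, where the share of all genes called was 0.0% in KO against WT and in KI against WT and 0.00457% in KI against KO. Beside these values, the summed level of the 5 B cell markers in Th0 had a median of 51.2 CPM in KO (22.8 to 143.2), 169 in WT (19.8 to 444) and 249 in KI (52.1 to 831), with overlapping ranges and 0 of 5 markers called in any genotype comparison. Their part in the level of Cbl was not tested.

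Of the transcription factors, Zeb1 in Th1 had log2 fold changes of 0.47 ± 0.16 in KO against WT (adjusted p = 0.507) and 0.34 ± 0.16 in KI against WT (0.296), and Th1 WT 2 and Th1 WT 5 were the lowest libraries. For Elk1 in Th1 they were 0.39 ± 0.17 (0.508) and 0.55 ± 0.17 (0.126), with the same libraries lowest in WT. All 4 values had an unadjusted p under 0.05. Foxp1 in Th1 was higher in KI than in every WT library (no overlap in 3.02% of all genes) and every KO library (2.36%). The lowest KI library held 206.7 CPM, and the highest held 205.3 in WT and 196.7 in KO, so KI and WT nearly touched. The log2 fold changes were 0.45 ± 0.23 (adjusted p = 0.352 by edgeR) and 0.60 ± 0.23 (0.685). In KO against WT, Foxp1 had values of -0.11, -0.15 and -0.38 in Th0, Th1 and Treg, and in KI against KO in Treg 0.40 (adjusted p = 0.715).

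Notch3 was higher in all Th1 KO libraries than in all Th1 WT libraries (0.95 ± 0.59, adjusted p = 0.633), and its values in Th0 and Treg were -0.78 and -0.89. Arrb2 had values from -0.06 to 0.31 over the 9 comparisons, with no unadjusted p under 0.05. For the 5 targets other than Notch3, the 95% intervals of the 45 genotype results lay between -0.84 and 1.06 on the log2 scale. Those of Notch3 lay between -2.10 and 2.24. No difference of a KO or KI effect between cultures was called in 36 results, and none among all genes in these 6 comparisons (0.0% of genes in each, edgeR). The 2 results at an unadjusted p under 0.05 are those of Notch3 given above, and DESeq2 called none of the 36.

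**Figure D5:**
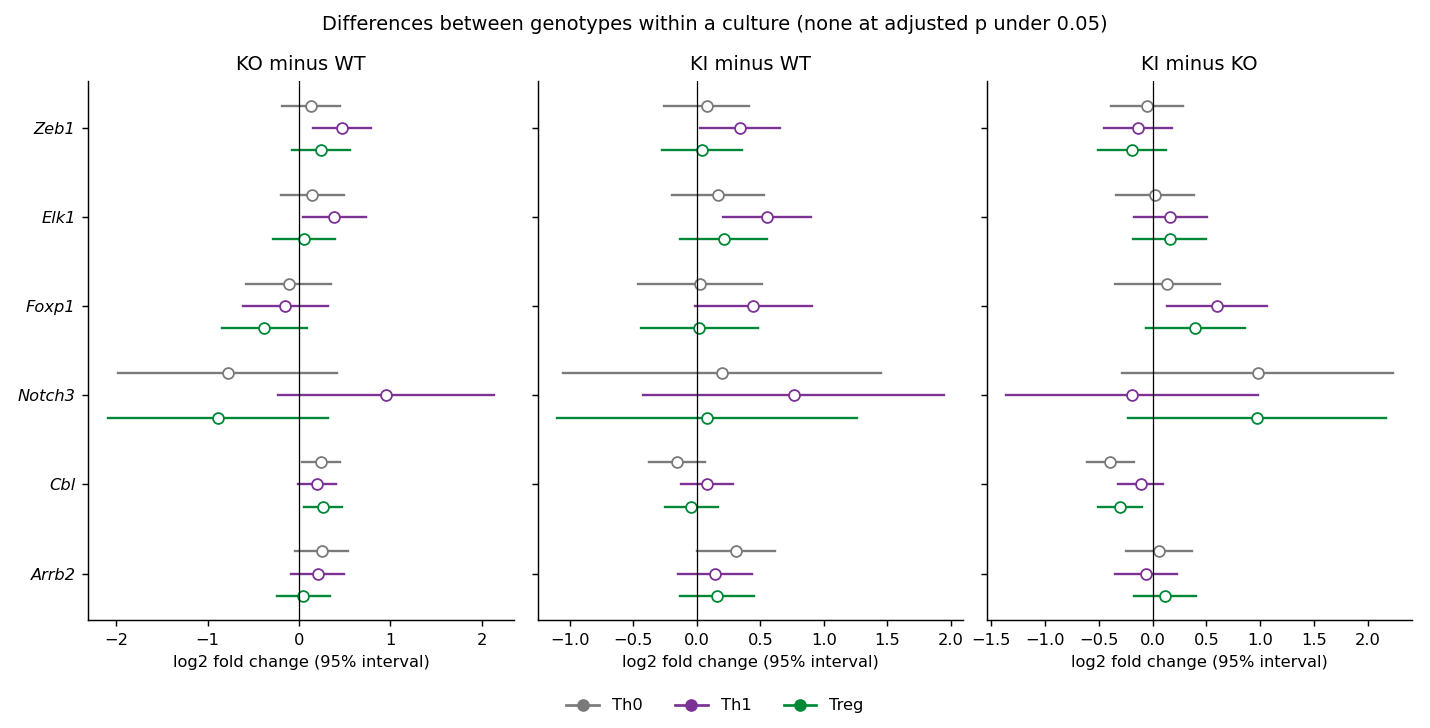
Log2 fold change of each target between miR-150 genotypes with its 95% interval, for KO minus WT, KI minus WT and KI minus KO, coloured by culture. No point passed an adjusted p of 0.05. In KO minus WT, Zeb1, Elk1, Cbl and Arrb2 lie above 0 and Foxp1 below 0 in all 3 cultures.

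Myb, the best known target in lymphocytes, was read in the same fits for comparison. Its 3′ UTR holds 2 matches of the 8mer kind. Myb was higher in KO than in WT in Treg by 1.10 ± 0.24 (adjusted p = 0.0286) and lower in KI than in KO in Treg by -1.22 ± 0.24 (0.0343). In Th0 and Th1 its KO values were 0.29 (adjusted p = 1) and 0.67 (0.507).

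A list of 14 other reported targets of miR-150, Myb included, was set beside the 6. In KO against WT, 1 of 14 was called in Treg, which was Myb, and none in Th0 or Th1. Between cultures, P2rx7, a receptor gated by extracellular ATP, rose in Th1 over Th0 in all 3 genotypes, by 2.35, 2.65 and 2.17 on the log2 scale in WT, KO and KI. Ccr6 and Cxcr4, both chemokine receptors, rose in Treg over Th0 by 2.76, 1.88 and 2.36 and by 2.03, 1.64 and 1.83. In that comparison 5, 5 and 6 of 14 were called higher and 1, 1 and 0 lower in WT, KO and KI, where 17.4%, 17.1% and 16.7% of all genes were called higher and 15.7%, 15.9% and 16.9% lower.

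Of 12 paralogs of the 6 genes, 5, 3 and 5 were called higher in Treg than in Th0 in WT, KO and KI and 4, 4 and 1 lower. The shares of all genes are those just given. Zeb2, the paralog of Zeb1, was lower in Treg than in Th0 by -2.18, -2.84 and -2.60, while Zeb1 was not called there. Foxp3, of the same family as Foxp1, rose by 7.69, 8.85 and 8.64, and Foxp2 had 0 counts in all Treg libraries of WT and KO and a mean of 0.212 and 0.135 CPM in Th0. Elk4 was called higher in Treg in all 3 genotypes.

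Of 20 pathway partners, none was called in Th1 against Th0 in any genotype. In Treg against Th0, 3, 2 and 4 were higher in WT, KO and KI and 3, 5 and 3 lower, where 17.4%, 17.1% and 16.7% of all genes were higher and 15.7%, 15.9% and 16.9% lower. Counts of 2 to 5 of 20 are near these shares. Maml1 and Mapk3 were higher and Fos, Egr1 and Ctbp2 lower in each genotype. Mapk3 is the ERK1 kinase that acts on Elk1, and Fos and Egr1 are genes that Elk1 is known to drive. Fos was lower by -1.67, -1.94 and -2.08, while Elk1 itself was higher. Mcl1, also listed as a partner of Elk1, went the other way from Fos and was called higher in WT only. Ctbp2, a corepressor that Zeb1 recruits, was lower by -2.15, -3.41 and -1.78. Ctbp1, the other corepressor listed for Zeb1, was called higher in KI and was not called in WT or KO. Maml1 is a coactivator of Notch receptors. Hes1, a gene that Notch signalling drives, was called lower in Treg than in Th0 in KO only. Hes1 was lower in Treg than in Th1 by -2.77, -3.11 and -2.56 at group means of at most 0.703 CPM. In Treg against Th1, 3, 3 and 4 of 20 partners were higher (15.6%, 15% and 17% of all genes) and 4, 4 and 3 lower (15.2%, 15% and 15.8%). Of the other listed Notch partners, Rbpj and Jag1 were called in neither comparison. Dtx1 was called lower in Treg than in Th0 in KO.

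Levels were also compared across all 44 libraries with those of other coding genes at a mean log2 CPM of at least 2. The closest to Zeb1 were Gnal (Pearson r = 0.944) and Lpp (0.924). Elk1 was closest to Irak4 (0.915) and Gramd1a (0.911), Foxp1 to Gtpbp8 (0.902) and Mbp (0.896), Cbl to Pbrm1 (0.908) and Pou2f1 (0.893), and Arrb2 to Tle5 (0.945) and Gpsm3 (0.934). Notch3 reached only 0.589 with Slc25a36. These values describe libraries that share 3 cultures and a depth range, and no test is attached.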

How the data were processed

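Per the labels' protocols, polyadenylated RNA of 44 cultures was made into stranded libraries and read from both ends. The authors deposited whole-number counts per gene, with 2 lane columns per library, which were summed. Per the file headers, reads were aligned with STAR. No label or header names the counting tool, annotation or strand setting. GRCh38 stands in the submitters' processing notes, although the gene identifiers are those of mouse. A second deposited table, of normalised values, was not used, and 1492 rows without a symbol stayed in the fit.

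Counts were fitted with edgeR 4.0.16 (R 4.3.3): TMM factors, its filter on low counts (21873 genes kept), 1 model of 9 group means, quasi-likelihood tests, Benjamini-Hochberg adjustment, threshold 0.05. CPM use TMM library sizes. DESeq2 1.42.0 and limma 3.58.1 served alternatives, and the fits were tested on simulated data. No 2 libraries of a group were copies. The seed search used the bases after the stop codon of GENCODE M21 transcripts on GRCm38. Sequence and place of the Zeb1 match are not reported here.

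The labels give numbers but not their meaning. Same-numbered libraries of a genotype deviated together: every correlation was over 0.1 in 8 of 9 pairs of cultures, the exception being Th0 KO with Treg KO (lowest -0.028), so the block is given beside the calls it changes. Between genotypes this held in 0 of 9.

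The members and lists were chosen with earlier results of these data known. Named genes are the 6 members, Mir150 and Myb, up to 3 called genes of each other list by size of change plus those needed to account for a list, and the most similar genes of each member by Pearson r, excluding predicted genes.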

Additional observations from a re-analysis of the deposited data

Results flagged for a closer look

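Each member was checked in each of the 9 groups for a library far from the others by Dixon's ratio, and 3 of 54 groups held one, where chance flags about 1 in 20. Zeb1 was 125.8 CPM in Treg KO 4, where the other Treg KO libraries held 67.7 to 75.4. Zeb1 was also lowest in Th0 KI 1, at 59.3 CPM against 62.9 to 63.6, a gap that stands out through the closeness of the other libraries. Arrb2 was 56.6 CPM in Th0 KO 5 against 68.9 to 73.3.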

How the results depend on the processing

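The 27 calls between cultures became 28 with RLE size factors, 23 with no filter on low counts, 29 of 45 when genes under a mean log2 CPM of 0 were dropped (which leaves Notch3 untested), 30 without WT 4, KO 2 and KI 3, 27 with only the libraries compared, 29 with DESeq2 and 23 to 29 when 1 library was left out. With the replicate block there were 34. The 0 calls between genotypes became 1 with DESeq2 and 0 to 1 when 1 library was left out, and 0 differences of effects were called in every setting. No result reversed. Of 37 results called in some setting, 4 were lost with only the libraries compared, Elk1 in Th1 against Th0 in WT at an adjusted p of 0.243 among them, and 4 with no filter. Of the results called in no setting, 38 changed sign in at least 1. Matches of any kind down to 6mers were present in 6 of 6 members. Depth limits Notch3 most. The scaling of a library differed between TMM and RLE by at most 0.0461 on the log2 scale.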
